A study of Mus musculus with 10 samples.

Results

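Transcripts of mucins and of genes that fold and glycosylate them were described in epithelium cut by laser from frozen sections of established KPFSR tumours. KPFSR is an engineered mouse line that develops pancreatic ductal adenocarcinoma. The 8 genes looked for were Muc1, Muc5ac, Muc6, Fcgbp, Agr2, Galnt12, Gcnt3 and St6galnac1, and 7 of them were among the 15624 genes of the count table. St6galnac1 was not analysed here. All 7 passed the filter on low counts, which kept 13006 genes. The members were chosen by symbol from a pathway theme, with the tamoxifen against corn oil results of these same libraries already known, so their levels and fold changes are a description and carry no test. The 2 groups were tumour-bearing KPFSR animals given tamoxifen (6 libraries) or its vehicle, corn oil (4 libraries). The sources used here do not give dose, timing or age. Knowledge of the model, not the labels, gives alleles that both groups share. Among these are a mutant Trp53, a Flp recombinase driven from Pdx1 in the pancreatic lineage, a floxed Slc7a11 and a tamoxifen-activated Cre expressed from the Rosa locus in all cell types. With this design the drug and the deletion cannot be told apart.

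Mucins are proteins with long stretches of serine and threonine that carry O-linked sugar chains. Gel-forming mucins such as Muc5ac and Muc6 are secreted as mucus by gastric-type cells, while Muc1 spans the apical membrane of ductal and glandular epithelium. Assembly begins in the endoplasmic reticulum, where Agr2, a protein disulfide isomerase family member, assists folding. It goes on in the Golgi, where polypeptide GalNAc-transferases such as Galnt12 attach the first sugar, Gcnt3 builds branched cores and sialyltransferases cap the chains. Gastric-type mucins are a known feature of well differentiated pancreatic ductal tumours and of their precursor lesions.

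Upstream sequences are shown for 3 members that differ in how they varied: Agr2, which split the tamoxifen libraries, Muc6, a secreted mucin that was near 0 in some libraries of both groups, and Muc1, the most abundant member. Each is the 250 bases before the start site that RefSeq gives on GRCm38.p6, in the direction of transcription, with motif matches in capitals.
Agr2: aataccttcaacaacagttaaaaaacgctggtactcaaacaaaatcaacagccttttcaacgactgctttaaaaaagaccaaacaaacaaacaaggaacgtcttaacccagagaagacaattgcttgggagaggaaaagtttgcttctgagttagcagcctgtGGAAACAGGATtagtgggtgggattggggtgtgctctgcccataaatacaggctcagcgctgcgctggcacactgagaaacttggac
Muc6: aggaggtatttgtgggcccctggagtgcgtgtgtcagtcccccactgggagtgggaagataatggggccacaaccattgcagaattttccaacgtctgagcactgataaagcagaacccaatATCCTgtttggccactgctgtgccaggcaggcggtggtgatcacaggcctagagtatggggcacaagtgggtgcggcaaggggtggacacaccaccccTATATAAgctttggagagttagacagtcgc
Muc1: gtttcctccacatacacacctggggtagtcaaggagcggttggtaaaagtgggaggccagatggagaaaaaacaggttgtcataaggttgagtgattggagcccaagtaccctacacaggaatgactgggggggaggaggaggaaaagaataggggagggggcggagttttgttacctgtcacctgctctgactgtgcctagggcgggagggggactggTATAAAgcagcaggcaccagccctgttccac

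The Agr2 stretch lies at chr12:35992675-35992924 on the plus strand, that of Muc6 at chr7:141655394-141655643 on the minus strand and that of Muc1 at chr3:89228806-89229055 on the plus strand. The motifs searched on both strands were the TATA box TATAAA, its variant form TATATAA, the forkhead core TGTTTNC, the ETS core AGGAT that Spdef prefers, and the core TGACGT of CREB-type factors. Promoters of 4 of the 7 measured members were in the RefSeq table, the fourth being Fcgbp. Muc1 held TATAAA 31 to 26 bases before the start, a match found in 12.4% of 32851 promoter windows of that length. Muc6 and Fcgbp each held TATATAA 30 to 24 bases before the start, found in 3.04% of windows. Agr2 held neither. Agr2 held TGTTTNC on the opposite strand, 87 to 81 bases before the start, found in 17.8% of windows, and an AGGAT that shares its last base. AGGAT was present in Agr2, Muc6 and Fcgbp and in 35.8% of windows, and TGACGT was in none of the 4 and in 6.47% of windows.

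Depth was 6899347 to 19462115 counts in tamoxifen libraries and 16473902 to 36132316 in corn oil libraries, and replicate 6 with tamoxifen was the shallowest. Levels are given as CPM, read counts scaled to library size with TMM factors (normalised CPM). Slc7a11, the gene that tamoxifen is meant to delete, spanned 5.90 to 19.3 normalised CPM with tamoxifen and 23.2 to 40.1 with corn oil, and the groups did not overlap (edgeR adjusted p 0.311). In earlier results of these data tamoxifen replicates 1 to 3 resembled one another more than other libraries did. The labels do not say whether they, or any libraries of a group, share an animal, and replicate numbers only name a library. Leaving out these 3 libraries, the log2 fold change of Slc7a11 was -0.91, against -1.41 with all libraries. The p-values here measure only the spread between samples. All 14 epithelial markers looked for had counts in every library. Of these, 11 of 14 had a log2 fold change below 0, beside 50.7% of all tested genes, and the median was -0.28. In edgeR 0 passed a false discovery rate (FDR) of 0.05, and 1, Cldn7 (-0.93), had an unadjusted p under 0.05. The markers ran from -1.53 (Prom1) to 0.048 (Krt8), with Epcam at -0.89. Their summed level was 14413 to 26870 normalised CPM with tamoxifen and 15201 to 33498 with corn oil. Of the 2 most abundant, Krt19 averaged 3105 ± 1319 normalised CPM (SD, n = 6) with tamoxifen and 4807 ± 1710 (SD, n = 4) with corn oil, and Krt18 averaged 6473 ± 1706 normalised CPM (SD, n = 6) with tamoxifen and 6545 ± 3222 (SD, n = 4) with corn oil.

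All 7 measured members had a log2 fold change below 0, tamoxifen over corn oil, which 50.7% of all tested genes had. Their median was -1.72, beside -0.010 over all genes tested, and the range was -3.42 to -0.50. Because the members were selected on the contrast in question, nothing is read from that count. In edgeR, 0 of 7 passed an FDR of 0.05 over all genes and 3 had an unadjusted p under 0.05. Over all genes 0.0384% passed the FDR, 0.0308% lower and 0.00769% higher with tamoxifen, and at an unadjusted p under 0.05 the shares were 5.27% lower and 4.43% higher. DESeq2 put Galnt12 past an adjusted p of 0.05, and limma voom with sample weights put Galnt12 and Agr2 past it, all lower with tamoxifen. Over all genes DESeq2 called 0.94% lower and 0.948% higher, and voom called 6.94% lower and 2.68% higher. The members were chosen with this contrast known, so the calls of each tool only describe them and are no evidence. The members' summed level was 870 to 2118 normalised CPM with tamoxifen and 2614 to 3774 with corn oil, without overlap. Most of that sum was Muc1 and Agr2, and each of these overlapped between groups on its own.

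**Figure D1:**
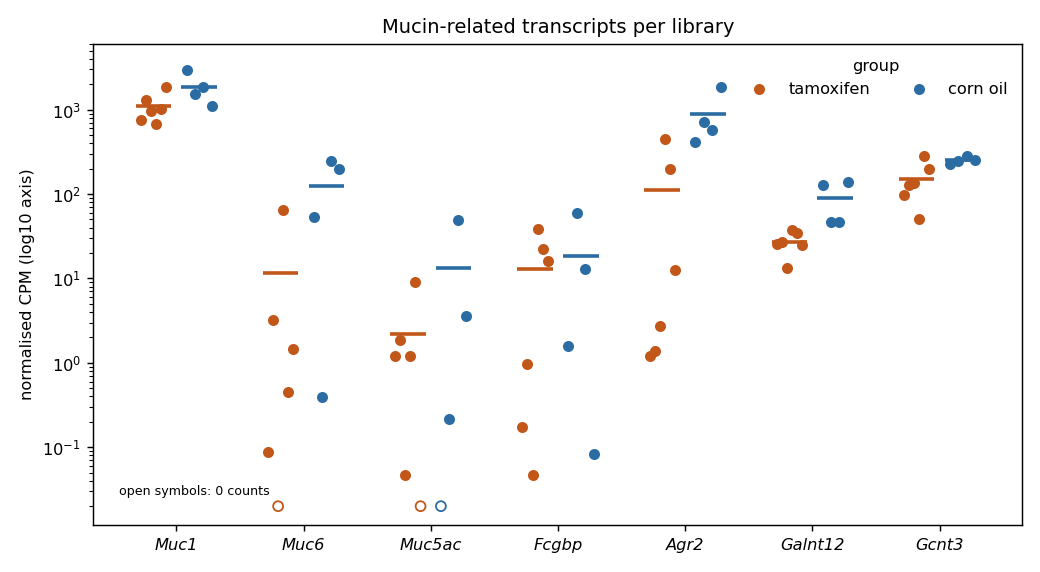
Normalised CPM of the 7 measured members (log10 axis) in each of 6 tamoxifen and 4 corn oil libraries, with a bar at the group mean and open symbols for libraries with 0 counts. Galnt12 is the member whose groups do not overlap, and Agr2 spans 1.22 to 451 normalised CPM with tamoxifen.

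Muc1, the membrane mucin, was the most abundant member. Its level was 745, 1292, 958, 673, 1015 and 1863 normalised CPM in tamoxifen replicates 1 to 6, and 2948, 1552, 1853 and 1098 in corn oil replicates 1 to 4. The groups overlapped, since tamoxifen replicates 2 and 6 lay above corn oil replicate 4. Means were 1091 ± 437 (SD, n = 6) with tamoxifen and 1863 ± 787 (SD, n = 4) with corn oil, a log2 fold change of -0.77 (SE 0.34). It was -0.46 without corn oil replicate 1, the highest library. Per kilobase of annotated exon, Muc1 stood at 465 ± 186 normalised CPM (SD, n = 6) with tamoxifen and 794 ± 336 (SD, n = 4) with corn oil. On that scale the mean of Agr2 came next in both groups, with 86.2 ± 142 (SD, n = 6) with tamoxifen and 682 ± 500 (SD, n = 4) with corn oil, so the order of Muc1 and Agr2 was within the spread with corn oil. With tamoxifen that rank rests on replicates 4 and 5. The median of Agr2 there was 5.87 per kilobase, below the medians of Gcnt3 (30.7) and Galnt12 (11.5), and without replicate 4 its mean was 33.5, below the 39.2 of Gcnt3. Gcnt3 stood at 34.6 ± 19.1 per kilobase with tamoxifen and 58.4 ± 4.94 with corn oil, and Galnt12 at 11.9 ± 3.78 with tamoxifen and 39.3 ± 21.8 with corn oil. Muc6, Fcgbp and Muc5ac were lowest in both groups. With tamoxifen they stood at 1.24 ± 2.77 (Muc6), 1.24 ± 1.49 (Fcgbp) and 0.207 ± 0.316 (Muc5ac) per kilobase, and with corn oil at 13.3 ± 12.5 (Muc6), 1.75 ± 2.64 (Fcgbp) and 1.23 ± 2.22 (Muc5ac). With tamoxifen the spreads of Muc6, Fcgbp and Muc5ac overlapped. Without tamoxifen replicate 4 the mean of Muc6 was 0.112, below the 0.226 of Muc5ac, so its place above Muc5ac rests on that library. Muc1 lies on chromosome 3 at 89229057 to 89233381 of GRCm38, plus strand.

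Muc6, a gel-forming mucin of gastric gland mucous cells, spread widely among corn oil libraries. Its level was 0.0871, 3.23, 0, 64.5, 0.448 and 1.47 normalised CPM in tamoxifen replicates 1 to 6, and 53.6, 0.396, 248 and 197 in corn oil replicates 1 to 4. Corn oil replicate 2 sat among the low tamoxifen libraries and tamoxifen replicate 4 above corn oil replicate 1, so the groups overlapped. The log2 fold change was -3.42 (SE 1.66), and -6.90 without tamoxifen replicate 4. At the depth of tamoxifen replicate 3, a count of 0 allows up to 0.142 normalised CPM (3 counts, counting error only).

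Muc5ac, the gel-forming mucin of surface mucous cells, was low in most libraries. Its level was 1.22, 1.87, 0.0474, 1.19, 9.001 and 0 normalised CPM in tamoxifen replicates 1 to 6, and 0, 0.213, 48.9 and 3.62 in corn oil replicates 1 to 4. A single corn oil library, replicate 3 with 1214 reads, held most of the reads of that group. The log2 fold change was -2.55 (SE 1.65), and it was 0.80 without that library, so its direction rests on 1 sample. Without tamoxifen replicate 5 it was -3.87, and in limma voom with sample weights -0.069. The counts of 0 allow up to 0.490 normalised CPM in tamoxifen replicate 6 and 0.185 in corn oil replicate 1. Muc6 and Muc5ac lie in the same mucin gene cluster on chromosome 7 of GRCm38, at 141633456 to 141655319 on the minus strand and 141788972 to 141819231 on the plus strand. Their levels did not run together in every library. Corn oil replicate 4 had 197 normalised CPM of Muc6 with 3.62 of Muc5ac, and tamoxifen replicate 5 had 0.448 of Muc6 with 9.001 of Muc5ac. Both genes hold repeats, and the sources used here do not say how reads that map to several places were counted.

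Fcgbp, a large secreted protein that is found in mucus, showed no common direction. Its level was 0.174, 0.959, 0.0474, 38.4, 22.5 and 16.2 normalised CPM in tamoxifen replicates 1 to 6, and 1.601, 59.0, 13.0 and 0.0832 in corn oil replicates 1 to 4. Each group held libraries above 10 and libraries below 1 normalised CPM. The log2 fold change was -0.50 (SE 1.53). It was 1.41 without corn oil replicate 2, 0.49 without tamoxifen replicates 1 to 3, and 0.087 with these 3 summed as 1 sample. Without tamoxifen replicate 4 it was -1.21.

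Agr2, the mucin-folding factor, split the tamoxifen libraries. Its level was 1.22, 1.36, 2.75, 451, 199 and 12.4 normalised CPM in tamoxifen replicates 1 to 6, and 414, 707, 567 and 1831 in corn oil replicates 1 to 4. Tamoxifen replicates 1, 2, 3 and 6 lay more than an order of magnitude below the lowest corn oil library, replicate 5 lay below it and replicate 4 lay inside the corn oil range. In reads, tamoxifen replicates 1 to 3 held 14, 27 and 58, and the lowest corn oil library held 6731. The log2 fold change was -2.98 (SE 1.36). It was -4.34 without tamoxifen replicate 4, -1.995 without tamoxifen replicates 1 to 3 and -7.74 in limma voom with sample weights. Agr2 lies on chromosome 12 at 35992907 to 36004087 of GRCm38, plus strand.

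Galnt12, a GalNAc-transferase that starts O-linked chains, was the member whose groups did not overlap. Its level was 25.9, 26.9, 13.2, 38.0, 34.7 and 24.8 normalised CPM in tamoxifen replicates 1 to 6, and 128, 47.1, 46.7 and 137 in corn oil replicates 1 to 4. Every tamoxifen library lay below every corn oil library, as did 1.95% of all tested genes, and 1.28% lay wholly above. With corn oil replicates 2 and 3 lay close together, and replicates 1 and 4 were well above them. By Xist counts replicates 1 and 4 were the female corn oil libraries, and tamoxifen replicate 6, at 24.8, was the female tamoxifen library. The log2 fold change was -1.72 (SE 0.39), it was -1.25 with sex as a covariate, and leaving out single libraries gave -1.93 to -1.44. Scaled to the summed epithelial markers in place of TMM factors, it was -1.41 and the groups overlapped.

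Gcnt3, which makes the branched core structures of mucin-type glycans, was the member with the smallest spread with corn oil. Its level was 96.5, 129, 135, 50.6, 283 and 199.8 normalised CPM in tamoxifen replicates 1 to 6, and 228, 248, 279 and 250.1 in corn oil replicates 1 to 4. Tamoxifen replicate 5 was the highest of all 10 libraries and the other tamoxifen libraries lay below corn oil, so the groups overlapped. Means were 149 ± 82.1 (SD, n = 6) with tamoxifen and 251 ± 21.3 (SD, n = 4) with corn oil, and the log2 fold change was -0.75 (SE 0.37). It was -0.49 without tamoxifen replicates 1 to 3. Galnt12 lies on chromosome 4 at 47091909 to 47123070, plus strand, Gcnt3 on chromosome 9 at 70031496 to 70038088, minus strand, and Fcgbp on chromosome 7 at 28071236 to 28120862, plus strand, of GRCm38. In GENCODE M21 the exons of none of the 7 members overlap those of another gene.

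**Figure D2:**
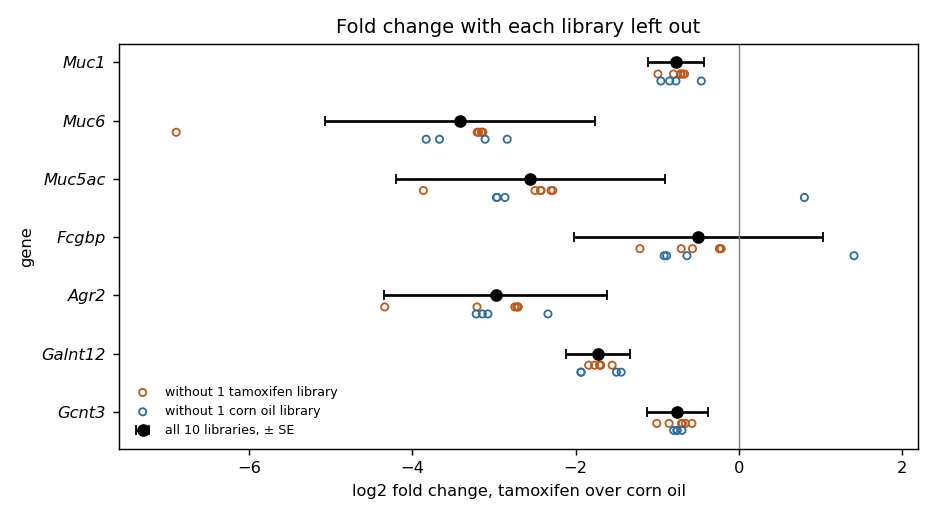
Log2 fold change, tamoxifen over corn oil, of each member with all 10 libraries (black, ± SE) and with 1 library left out (open circles, by the group of the library). The sign of Fcgbp and of Muc5ac turns without 1 corn oil library, while Galnt12 keeps to -1.93 to -1.44.

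The members differed in how they varied among libraries of the same group. The within-group SD of log2 CPM was 0.56 for Muc1, 0.68 for Galnt12 and 0.68 for Gcnt3, against 2.95 for Agr2, 3.09 for Muc5ac, 3.53 for Fcgbp and 3.68 for Muc6. Among these 7 the secreted proteins and their folding factor were the more variable. The secreted ones were also the least abundant, with mean log2 CPM of 0.15 (Muc5ac), 1.73 (Fcgbp) and 2.22 (Muc6). The other members averaged 5.34 or more, so for the secreted ones kind of protein and level cannot be told apart. Agr2 was not of low level, with a mean log2 CPM of 6.07, above the 5.34 of Galnt12. Its levels spread more widely with tamoxifen, at 1.22 to 451 normalised CPM, than with corn oil, at 414 to 1831. No rule for other genes is read from this, since the membrane mucin Muc20 spanned 0.0871 to 61.1 normalised CPM with tamoxifen. Tamoxifen replicate 4 stood high for Muc6, Agr2 and Fcgbp and lowest of all libraries for Muc1 and Gcnt3, with 673 and 50.6 normalised CPM. That library also had the highest summed fibroblast markers, at 2346 normalised CPM, and the highest macrophage and leukocyte markers, at 2206. Fibroblast sums were 729.7 to 1749 in the other tamoxifen libraries and 388 to 1184 with corn oil, and macrophage and leukocyte sums 826 to 1307 in the other tamoxifen libraries and 952 to 1430 with corn oil. Of 14 fibroblast markers 11 to 14 had counts with tamoxifen and 12 to 14 with corn oil, with Fap at 0 in tamoxifen replicates 3 and 6 and corn oil replicates 2 and 3. The endothelial sum was 4.48 to 28.9 with tamoxifen and 2.87 to 34.4 with corn oil. The sum of 6 acinar markers was 33.1 to 86.9 with tamoxifen and 17.2 to 208 with corn oil, nearly all of it Cela1, while Cela2a was at 0 in every tamoxifen library and in 3 of 4 corn oil libraries. The part of these other cells in the members' levels was not tested. In bulk samples fewer cells of a type and less RNA per cell cannot be told apart. With the fibroblast marker level as a covariate the log2 fold changes of Agr2 and Muc6 were -5.92 and -5.37, against -2.98 and -3.42 without it. Those of Galnt12, Muc5ac and Fcgbp were -2.003, -2.67 and -0.77, against -1.72, -2.55 and -0.50. Muc1 and Gcnt3 moved nearer 0, to -0.67 and -0.65 from -0.77 and -0.75.

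**Figure D3:**
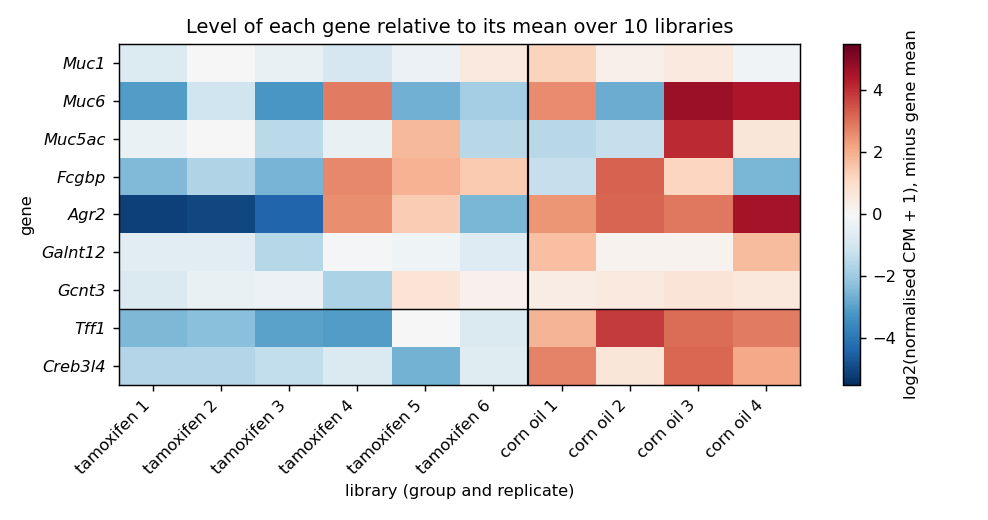
Level of each member, and of Tff1 and Creb3l4, as log2(normalised CPM + 1) minus the gene's mean over 10 libraries, with tamoxifen libraries left of the line and corn oil libraries right of it. Agr2 is lowest in tamoxifen replicates 1 to 3 (-5.12, -5.03 and -4.36), and Tff1 and Creb3l4 are above their means in all 4 corn oil libraries.

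Over the 10 libraries, the Pearson r of log2 CPM between 2 members ran from -0.24 (Muc1 with Muc5ac) to 0.77 (Agr2 with Galnt12) over 21 pairs, with a median of 0.29. These values hold the group difference. On deviations from the group means they ran from -0.41 to 0.60 (Agr2 with Fcgbp), with a median of 0.098. Among 8760 other genes whose log2 CPM averaged 3 or more, those most like the members' mean standardised level over 10 libraries were Plekhs1 (r of 0.97), Vasp (0.94), Bok (0.94), Vsig2 (0.94), Gid8 (0.93), Rab25 (0.92), Filip1l (0.92), Tm4sf5 (0.92), Pla2g16 (0.92) and Ap1m2 (0.91). Vasp is a regulator of actin filaments, Bok a BCL2 family protein, Rab25 an epithelial small GTPase and Ap1m2 a subunit of the epithelial clathrin adaptor. On deviations from the group means the closest were Plekhs1 (0.96), Rhoj (0.89), Cxcl16 (0.88), 0610031J06Rik (0.87) and Ap1m2 (0.87). Plekhs1 stood at 1.22 to 44.7 normalised CPM with tamoxifen and 28.9 to 129 with corn oil. Libraries share depth and purity across genes, and no p is given for these correlations.

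The other genes of mucin synthesis and of mucous cells were tested in the same edgeR fit, with p-values adjusted over all genes. Of 121 genes in 7 lists, 87 were tested, 59 with a log2 fold change below 0, and 2 fell past the FDR while 0 rose. The 2 were Tff1 and Creb3l4. No gene of the enzyme and mucin lists passed in edgeR. The counts below stand beside these shares of all tested genes. In edgeR 50.7% had a log2 fold change below 0, and at an unadjusted p under 0.05 5.27% were lower and 4.43% higher. Without overlap between groups, 1.95% were lower and 1.28% higher. At an adjusted p of 0.05 DESeq2 called 0.94% lower and 0.948% higher, and voom 6.94% and 2.68%.

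Of 16 other mucins 5 were tested and 0 passed in edgeR or DESeq2 (1 each at an unadjusted p under 0.05), with a median log2 fold change of -0.57. Muc4, a membrane mucin, stood at 19.5 ± 21.96 normalised CPM (SD, n = 6) with tamoxifen and 82.7 ± 68.4 (SD, n = 4) with corn oil, which was a log2 fold change of -2.09 (SE 0.92) with an edgeR adjusted p of 0.493. Muc20, another membrane mucin, stood at 19.6 ± 25.8 with tamoxifen and 88.7 ± 79.8 with corn oil, for a log2 fold change of -2.18 (SE 1.21) with an edgeR adjusted p of 0.620. Without tamoxifen replicates 1 to 3 the log2 fold changes were -1.23 for Muc4 and -1.22 for Muc20. Voom put both past an adjusted p of 0.05, at -3.48 and -5.16. With the fibroblast level as a covariate Muc4 was at -1.73, nearer 0, and Muc20 at -3.76.

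Of the other GalNAc-transferases 10 of 18 were tested, 6 with lower and 4 with higher levels, and 0 passed in edgeR or DESeq2 (3 each at an unadjusted p under 0.05) and 3 in voom. Galnt3 averaged 79.3 ± 29.7 normalised CPM (SD, n = 6) with tamoxifen and 170 ± 65.9 (SD, n = 4) with corn oil, which was a log2 fold change of -1.10 (SE 0.32) with an edgeR adjusted p of 0.271. Galnt1 went the other way, at 254 ± 72.3 with tamoxifen and 139 ± 38.4 with corn oil, for a log2 fold change of 0.87 (SE 0.27) with an edgeR adjusted p of 0.308. The 2 enzymes catalyse the same first step, and neither difference passed the FDR.

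Of the core and extension enzymes 14 of 18 were tested, 7 in each direction, with a median of -0.13 and 0 past the threshold in edgeR or DESeq2 (1 and 2 at an unadjusted p under 0.05) and 1 in voom, B3gnt7 (-7.31). B3gnt7, which extends chains with N-acetylglucosamine, stood at 5.498 ± 7.98 normalised CPM (SD, n = 6) with tamoxifen and 104 ± 111 (SD, n = 4) with corn oil, which was a log2 fold change of -4.23 (SE 1.34) with an edgeR adjusted p of 0.311. The log2 fold change of B3gnt2, a related enzyme, was 0.50 (SE 0.26) with an edgeR adjusted p of 0.574. C1galt1, the core synthase, and its chaperone C1galt1c1 were at -0.82 and -0.35 on the log2 scale, 2 genes named for their place in the pathway and outside the rule for named genes.

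Of the capping enzymes 18 of 23 were tested, 9 in each direction, with a median of -0.10 and 0 past the threshold in edgeR or DESeq2 (2 and 3 at an unadjusted p under 0.05) and 2 in voom. St3gal6, a sialyltransferase, was lower in every tamoxifen library than in any corn oil library, at 10.04 to 117 with tamoxifen and 123.2 to 204 with corn oil in normalised CPM, for a log2 fold change of -2.07 (SE 0.62) with an edgeR adjusted p of 0.291. St6galnac2, from the same sialyltransferase family as St6galnac1, was at -2.16 (SE 0.98, edgeR adjusted p 0.504). Without tamoxifen replicates 1 to 3 St3gal6 was at -1.27 and St6galnac2 at -1.33, and voom, which called both, gave -3.58 and -3.62. Without tamoxifen replicates 4 and 6 St3gal6 was at -3.24 with an edgeR adjusted p of 0.0301. Those libraries held its highest levels with tamoxifen, 58.7 and 117 normalised CPM. Leaving them out deepens the fall by construction, so nothing is read from that p.

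All 16 genes of nucleotide sugar supply were tested and 13 had a fold change below 0, with a median of -0.31. In edgeR 0 passed and 3 had an unadjusted p under 0.05, DESeq2 called Gfpt1, and voom called 3 genes, Gfpt1 and Uap1 among them. Gfpt1, the entry enzyme of the hexosamine pathway, stood at 84.4 ± 23.2 normalised CPM (SD, n = 6) with tamoxifen and 188 ± 68.9 (SD, n = 4) with corn oil, which was a log2 fold change of -1.16 (SE 0.28) with an edgeR adjusted p of 0.182. The groups did not overlap for 3 genes of the list, all lower with tamoxifen, as were 1.95% of all tested genes. Among the 3 were Gfpt1 and Uap1, a late enzyme of the same pathway with a log2 fold change of -0.83. Uap1 was named after its values were seen.

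**Figure D4:**
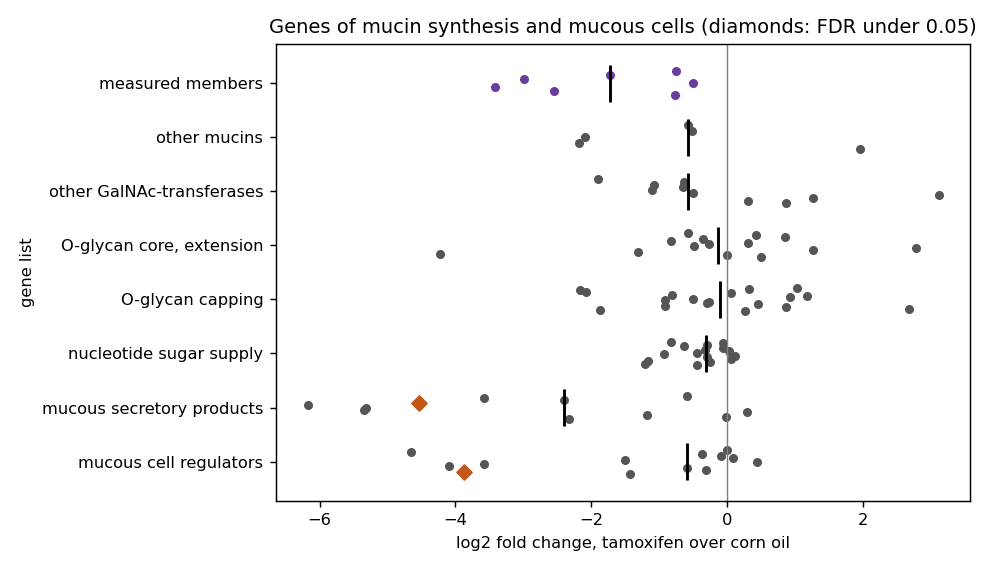
Log2 fold change, tamoxifen over corn oil, of each tested gene (points) and the median (bar) of the 7 measured members and 7 lists of other genes, with diamonds for the 2 genes past an FDR of 0.05 in edgeR. The medians run from -2.40 for mucous secretory products to -0.10 for capping enzymes.

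Among mucous secretory products 10 of 11 tested genes had a fold change below 0, with a median of -2.40, and 8 had an unadjusted p under 0.05, all lower. Over all tested genes these shares were 50.7% below 0 and 5.27% lower at that p. Earlier results of these data had already shown gastric and mucous genes to be lower with tamoxifen, so the list is no independent evidence. Tff1, a trefoil peptide secreted with mucins, fell to 241 ± 230 normalised CPM (SD, n = 6) with tamoxifen, against 5583 ± 3022 (SD, n = 4) with corn oil, which was a log2 fold change of -4.53 (SE 0.66) with an edgeR adjusted p of 0.0362. Gkn1 and Gkn3, gastrokines of the stomach lining and named after their values were seen, were the other members whose groups did not overlap, at -5.35 and -6.18 on the log2 scale. Tff1 stayed low in tamoxifen replicate 4 (76.7 normalised CPM), the library in which Agr2 was within the corn oil range.

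Among regulators of mucous cells 10 of 13 tested genes had a fold change below 0, and the median was -0.58. Over all tested genes 50.7% were below 0, 1.95% were lower without overlap and DESeq2 called 0.94% lower. This list too was chosen with earlier results of these data known, so it is no independent evidence. Creb3l4, a membrane-bound transcription factor of secretory cells, fell to 9.86 ± 4.60 normalised CPM (SD, n = 6) with tamoxifen, against 145 ± 86.3 (SD, n = 4) with corn oil, which was a log2 fold change of -3.88 (SE 0.50) with an edgeR adjusted p of 0.0351. Spdef, an ETS factor of mucous cells, Foxa1 and Foxa3, forkhead factors, and Ern2, an endoplasmic reticulum stress sensor of mucous epithelium, also did not overlap between groups. They were named after their values were seen and did not pass in edgeR, with log2 fold changes of -4.65, -3.58, -1.49 and -4.10 and edgeR adjusted p of 0.113, 0.166, 0.102 and 0.129. DESeq2 called all 5 of these genes. Xbp1, a general regulator of secretory capacity, averaged 607 ± 167 normalised CPM (SD, n = 6) with tamoxifen and 607 ± 191 (SD, n = 4) with corn oil, and Foxa2 was at 0.44 on the log2 scale, both named after their values were seen. Both Tff1 and Creb3l4 lost the FDR call without tamoxifen replicates 1 to 3 (edgeR adjusted p 0.509 for each) or with these summed as 1 sample (0.267 for each), at log2 fold changes of -3.91 and -3.69 without them. With 1 library left out, Tff1 kept its call without tamoxifen replicate 4 or 5, and Creb3l4 without corn oil replicate 2 or tamoxifen replicate 4, 5 or 6. Leaving out any of the other libraries ended the call. With sex as a covariate both lost it (edgeR adjusted p 0.0984 for Tff1 and 0.0842 for Creb3l4). With the fibroblast level as a covariate Tff1 lost it (edgeR adjusted p 0.0963) and Creb3l4 kept it (0.00963).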

How the data were processed

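RNA-seq counts of 10 libraries from laser-captured tumour epithelium were used, 6 from mice given tamoxifen and 4 from mice given corn oil, grouped by the treatment label. The labels' protocols name an RNeasy micro kit, SMART-seq v4 amplification and Nextera XT, which does not mark strand. The deposited values are raw counts of reads per gene, with no normalization by the authors. The tools were STAR 2.5.2b, featureCounts 1.5.0-p3 and bcl2fastq 2.17 on mm10, per the submitters' processing notes. The sources used here do not give the annotation, strand setting or treatment of multi-mapping reads.

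Counts were fitted with edgeR 4.0.16 in R 4.3.3 over all genes kept by filterByExpr, with TMM factors, the quasi-likelihood F test and Benjamini-Hochberg adjustment (FDR 0.05). The SE is the absolute log2 fold change divided by the square root of F. A prior count of 2 went into log2 CPM. The test was tested on simulated data with the same spread setting for every gene, which does not cover the wide spread of members such as Muc6. Alternatives were RLE and upper-quartile factors, epithelial marker scaling, other filters, DESeq2 1.42.0, limma 3.58.1 (voom), covariates for sex (read from Xist and Ddx3y) and fibroblast level, and leaving out libraries. Gene positions and exon lengths are from GENCODE M21 on GRCm38, in which 14649 symbols (93.8%) matched. Promoters are from RefSeq. Figures used matplotlib 3.10.9.

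The members and gene lists were chosen with earlier results of these data known. All members were named. Each other list gave up to 4 genes past the FDR or, failing that, its 2 genes with the lowest p among those averaging 0 or more in log2 CPM. The 10 genes most like the members, and 5 on deviations from group means, were named too. Precision is limited by 4 and 6 libraries, and floors cover counting error only. Some items that the rule for named genes or the description of the model would include are not reported here.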

Additional observations from a re-analysis of the deposited data

Results flagged for a closer look

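In 7 of 72 groups of values checked, 1 library stood far from the rest of its group. The limit used is set to flag about 1 in 20 groups of independent, normally distributed values. CPM was not log-transformed here, and some groups share genes, as Lyz2 and the macrophage sum do. The count is therefore not read as an excess over chance. Muc5ac was highest in corn oil replicate 3 (48.9 normalised CPM, others 0 to 3.62) and in tamoxifen replicate 5 (9.001, others 0 to 1.87). Muc6 was highest in tamoxifen replicate 4 (64.5 normalised CPM, others 0 to 3.23). The same library was highest for the macrophage gene Lyz2 (830 normalised CPM, others 58.1 to 295) and for the summed macrophage and leukocyte markers (2206 normalised CPM, others 826 to 1307). Bhlha15, an acinar transcription factor, was highest in tamoxifen replicate 1 (3.40 normalised CPM, others 0 to 0.628). Galnt1 was highest in corn oil replicate 4 (196 normalised CPM, others 115 to 127).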

How the results depend on the processing

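The median log2 fold change of the 7 members, tamoxifen over corn oil, was -2.003 to -1.25 in 12 alternatives and -1.93 to -0.77 with 1 library left out, the smallest being without corn oil replicate 3. Fold changes of Muc1, Muc6, Agr2, Galnt12 and Gcnt3 stayed below 0 in every alternative run. Muc5ac turned to 0.80 without corn oil replicate 3, was -3.87 without tamoxifen replicate 5, -3.65 with sex as a covariate and -0.069 in voom. Fcgbp turned to 1.41 without corn oil replicate 2, to 0.49 without tamoxifen replicates 1 to 3 and to 0.087 with these summed, and was -1.21 without tamoxifen replicate 4 and -2.60 in voom. Members without overlap between groups numbered 0 with epithelial marker scaling, 2 without tamoxifen replicates 4 and 6, and 1 to 2 with 1 library left out. Genes past the FDR numbered 5 in the reported fit, 243 in DESeq2, 1251 in voom, 0 with sex as a covariate, 9 with the fibroblast level as a covariate, 0 with tamoxifen replicates 1 to 3 summed, 0 without these 3, 77 without tamoxifen replicates 4 and 6, and 0 to 11 with 1 library left out. With 0 calls, genes at an unadjusted p under 0.05 numbered 1196 with sex as a covariate, 709 with tamoxifen replicates 1 to 3 summed and 602 without these, and 894 to 1252 in the 5 fits that left out corn oil replicate 1 or 3 or tamoxifen replicate 1, 2 or 3. Listed genes past the FDR numbered 2 in the reported fit and, in the same order, 11, 23, 0, 2, 0, 0 and 6, and 0 to 3 with 1 library left out. With the fibroblast level as a covariate Creb3l4 was among those past it and Tff1 was not. The causes were not tested. Tff1 and Creb3l4 kept their sign in all 21 alternatives and lost the call in 12 and 9 of them. Muc5ac did not pass the filter of 5 CPM in 4 libraries. No paired analysis was possible because the labels do not tie tamoxifen libraries to corn oil libraries. The shallowest library, tamoxifen replicate 6, had the highest floor, 0.490 normalised CPM for 3 counts.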

Other observations

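Muc13, B4galnt2 and Dmbt1 were each highest of all 10 libraries in tamoxifen replicate 4, while Tff1 was lowest of all 10 there (76.7 normalised CPM). Muc13, a membrane mucin of the gut, stood at 148 normalised CPM in tamoxifen replicate 4, against 0.0474 to 2.29 in the other tamoxifen libraries and 0 to 13.4 with corn oil. B4galnt2, which adds GalNAc to sialylated glycans of the gut, stood at 132 there, at 31.6 in tamoxifen replicate 5, at 0.101 to 0.348 in the other 4 tamoxifen libraries and at 0 to 9.48 with corn oil. Dmbt1, a secreted mucosal protein that binds bacteria, stood at 7724 in tamoxifen replicate 4 and at 291 to 1624 in the other tamoxifen libraries, and at 80.8 to 4811 with corn oil. Spdef in the same library was 5.34 normalised CPM, inside the 0 to 9.84 of all tamoxifen libraries, and 48.7 to 149 with corn oil. These genes were picked after their values were seen, and no test is given.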
